A study of Rattus norvegicus with 6 samples.

Results

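The small leucine-rich proteoglycans (SLRPs) described here are 10 genes, Dcn, Lum, Bgn, Fmod, Ogn, Aspn, Prelp, Omd, Podn and Kera, taken by exact match of the gene symbol among the 20653 genes of the deposited tables. All 10 had a row and all 10 passed the filter on low counts. The study sequenced RNA of primary rat mesenchymal stem cells from the nasal mucosa, with SD given as the genotype, within work on spinal cord injury in rats. The first group, NPS-EMSC, is 3 libraries of cells made to overexpress neuropeptide S, a secreted signalling peptide, and the second, EMSC, is 3 libraries of the same type of cell without that name. The labels do not say whether the EMSC cells carried an empty vector, how neuropeptide S was delivered, or whether the 3 libraries of a group are separate cultures, so that p-values measure the spread between these libraries, which may be technical. Effects of gene delivery or selection and of the peptide itself cannot be told apart.

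SLRPs are secreted proteins built on a core of leucine-rich repeats, and most carry chondroitin, dermatan or keratan sulfate chains. They bind collagen fibrils in connective tissue, where they set how wide the fibrils grow and how they are spaced, and several also hold growth factors such as TGF-β in the matrix. Decorin and biglycan released from the matrix can act on cell surface receptors. Mesenchymal and fibroblast-like cells are a main source of these proteins, and fibroblast SLRPs are part of the scar matrix after injury.

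Of the 10 genes, 9 were lower and 1 was higher in NPS-EMSC, by edgeR's quasi-likelihood test, with an adjusted p (Benjamini-Hochberg, 14505 tested genes) under 0.05. Of all tested genes 59.3% were called, 29.5% lower and 29.7% higher, so a call in itself says little here. A fold of at least 2 downward was reached by 6 of the 10 (Kera, Fmod, Omd, Ogn, Dcn and Lum), where 8.3% of all tested genes did so. The median log2 fold change of the 10 was -1.48, beside -0.0048 over all genes tested. In none of the 10 did the values of NPS-EMSC and EMSC overlap, which was true of 64.7% of all tested genes. The falls differed in size, between 1.26-fold for Bgn and 30.1-fold for Kera. Bulk RNA cannot tell fewer cells of a type from less RNA per cell.

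**Figure D1:**
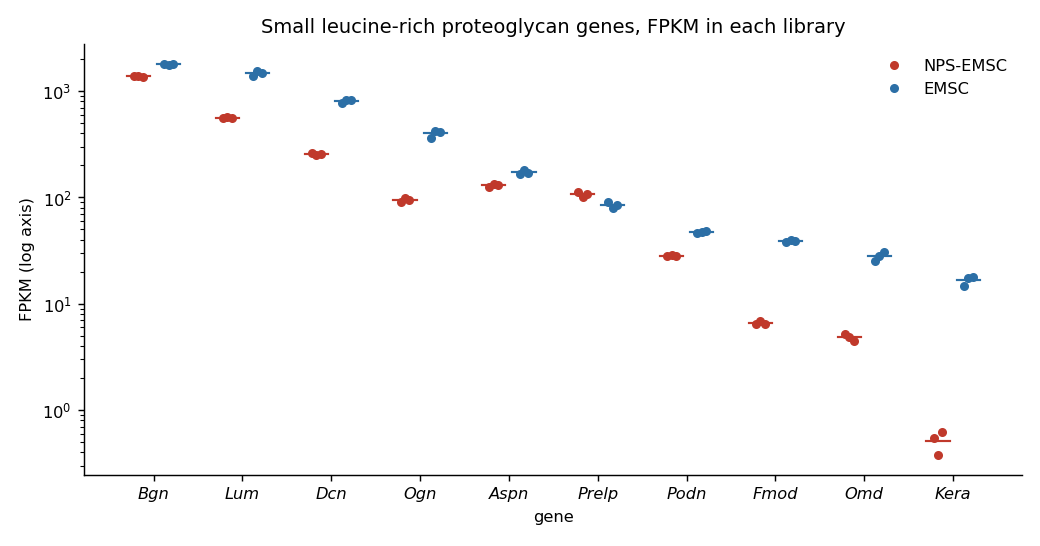
FPKM of the 10 genes in each library on a log axis, with NPS-EMSC in red left of EMSC in blue; points are libraries and short lines are group means (n = 3). Prelp is the gene whose NPS-EMSC points lie above its EMSC points, and Kera has the widest gap.

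The libraries held 39082245 to 39511976 counted reads in NPS-EMSC and 39314098 to 40261205 in EMSC. Nps, the neuropeptide S precursor gene, stood at 2214 ± 226 CPM in NPS-EMSC and 0.0835 ± 0.145 CPM in EMSC (CPM is the read count scaled to the TMM-adjusted library size; SD, n = 3). All 8 mesenchymal markers on the list passed the filter, 2 lower (Pdgfra, Col1a1) and 6 higher in NPS-EMSC, with a summed level of 14600 to 15400 CPM in NPS-EMSC and 14200 to 15600 CPM in EMSC. The neural crest list also had all 6 genes past the filter, 5 lower and 1 higher in NPS-EMSC. Its sum of 2310 to 2390 CPM in NPS-EMSC and 1920 to 2080 CPM in EMSC came mostly from Prrx1, and Ngfr stood at 0.121 CPM in NPS-EMSC and 1.2 CPM in EMSC. Ngfr passed the filter through its EMSC reads alone, so its direction carries little weight. Other marker lists moved between the groups, and their part in the SLRP results was not tested. For these counts too, 29.5% of all tested genes were lower and 29.7% higher. The 4 smooth muscle markers were all higher, with a sum of 3530 to 3740 CPM in NPS-EMSC against 783 to 907 CPM in EMSC. Of 7 tested leukocyte markers 6 were lower and Cd14 was higher, with a sum of 38.7 to 41.5 CPM in NPS-EMSC against 73.0 to 82.1 CPM in EMSC. Among the lower ones, Ptprc, Itgam, Csf1r and C1qa reached 10 reads in all 3 libraries only in EMSC. They thus passed the filter through the group where they are high, and their direction carries little weight. The other lower ones had more reads. Lyz2 had 147, 185 and 113 reads in NPS-EMSC and 1850, 2439 and 2088 in EMSC (log2 fold change -3.76, SE 0.15). Cd68 had 139, 165 and 172 reads in NPS-EMSC and 318, 216 and 178 in EMSC (log2 fold change -0.50, SE 0.19). Ptprc, which defines leukocytes, was at 0.00862 CPM in NPS-EMSC and 0.774 CPM in EMSC. The glial marker S100b was lower, at 3.30 ± 0.269 CPM in NPS-EMSC and 13.2 ± 0.611 CPM in EMSC, while Sox10 was at 0.0516 CPM in NPS-EMSC and 0.0577 CPM in EMSC. Of the 6 epithelial markers 2 passed the filter, Krt8 and Krt18, both higher (list sum 10.1 to 13.2 CPM in NPS-EMSC and 4.18 to 4.93 CPM in EMSC). Epcam and Cdh1 were under 0.05 CPM in both groups. The endothelial sum was 2.29 to 2.98 CPM in NPS-EMSC and 2.67 to 3.11 CPM in EMSC and its 3 tested genes did not pass, and the olfactory neuron sum was 1.41 to 2.07 CPM in NPS-EMSC and 0.915 to 1.07 CPM in EMSC. Of 7 cartilage and tendon markers, 4 were higher (Tnmd, Acan, Mkx, Scx) and 3 lower (Comp, Sox9, Col2a1), with a sum of 80.6 to 90.1 CPM in NPS-EMSC and 41.9 to 48.1 CPM in EMSC. Col2a1 had few reads, 9, 19 and 24 in NPS-EMSC and 60, 67 and 48 in EMSC. It reached 10 reads in all 3 libraries only in EMSC, so its direction carries little weight. Krt5, Krt14, Cdh5 and Gfap were without reads in NPS-EMSC. In EMSC they had at most 18, 1, 4 and 8 reads in a library, and none of them was tested.

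Decorin, biglycan and asporin form the first class of the family. Dcn encodes decorin, which carries a single chondroitin or dermatan sulfate chain, coats collagen fibrils and binds TGF-β. Dcn had 260.5, 253 and 255 FPKM in the NPS-EMSC libraries and 779.9, 829 and 828 FPKM in the EMSC libraries (FPKM is the read count scaled to gene length and library total). The NPS-EMSC values lay within a narrow band at about a 3.08-fold lower level than EMSC (log2 fold change -1.62, SE 0.05, adjusted p = 7.99e-20). Among all deposited genes ranked by mean FPKM, Dcn stood at place 243 in NPS-EMSC and place 66 in EMSC.

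Bgn encodes biglycan, the close relative of decorin that in soluble form signals through toll-like receptors. Bgn was the most abundant of the 10 in every library, with 1393, 1395 and 1347 FPKM in NPS-EMSC and 1817, 1765 and 1802 FPKM in EMSC. Its fall was small but larger than the spread between libraries (log2 fold change -0.34, SE 0.05, adjusted p = 7.33e-07). It took place 21 in NPS-EMSC and place 13 in EMSC among all genes. The ratio of Bgn to Dcn was 5.35, 5.5 and 5.29 in NPS-EMSC libraries against 2.33, 2.13 and 2.18 in EMSC libraries.

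Aspn encodes asporin, which binds collagen and TGF-β and has a run of aspartate residues in place of a typical chain attachment site. Aspn had 125, 133 and 132 FPKM in NPS-EMSC and 165, 182 and 171 FPKM in EMSC. Like Bgn it fell by a small step without overlap of the groups (log2 fold change -0.37, SE 0.05, adjusted p = 3.31e-07).

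The second class holds lumican, keratocan, fibromodulin, osteomodulin and PRELP, several of which carry keratan sulfate. Lum encodes lumican, a collagen-spacing proteoglycan best known from the cornea. Lum had 564, 571 and 553 FPKM in NPS-EMSC and 1398, 1544 and 1481 FPKM in EMSC. All NPS-EMSC libraries were far below all EMSC libraries (2.54-fold; log2 fold change -1.35, SE 0.05, adjusted p = 9.16e-18). Lum took place 111 in NPS-EMSC and place 20 in EMSC among all genes.

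Kera encodes keratocan, a keratan sulfate proteoglycan that in the body is largely a product of corneal keratocytes. Kera was covered by 42, 29 and 48 reads in NPS-EMSC, against 1162, 1384 and 1388 reads in EMSC. In FPKM these were 0.544, 0.376 and 0.616 in NPS-EMSC and 14.7, 17.4 and 17.9 in EMSC. It had the largest fall of the 10 (log2 fold change -4.91, SE 0.15, adjusted p = 1.58e-19), and 0.0827% of all tested genes had a more negative value. On log2(FPKM + 1) values the change was -3.55, since the added 1 exceeds its NPS-EMSC level. Its spread within NPS-EMSC was the widest of the 10, with a coefficient of variation (SD over mean of CPM) of 24.3%, where the lowest, that of Podn, was 1.31%.

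Fmod encodes fibromodulin, which shares a collagen binding site with lumican and is abundant in tendon and cartilage. Fmod had 6.39, 6.82 and 6.46 FPKM in NPS-EMSC and 38.4, 39.7 and 39.1 FPKM in EMSC. Both groups were tight, and the NPS-EMSC level was 5.77-fold lower (log2 fold change -2.53, SE 0.06, adjusted p = 5.52e-22). Omd encodes osteomodulin, a keratan sulfate proteoglycan of mineralised matrix. Omd had 5.19, 4.83 and 4.48 FPKM in NPS-EMSC and 25.3, 28.0 and 30.8 FPKM in EMSC, a fall nearly as large as that of Fmod (log2 fold change -2.49, SE 0.09, adjusted p = 6.63e-18).

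Prelp was the gene that rose. It encodes a member with a basic amino terminus that binds heparan sulfate and collagen and is thought to anchor basement membranes to the tissue beneath. Prelp had 113, 101 and 109 FPKM in NPS-EMSC and 90.3, 79.5 and 84.5 FPKM in EMSC. All NPS-EMSC libraries lay above all EMSC libraries, by 1.31-fold (log2 fold change 0.39, SE 0.05, adjusted p = 4.12e-07).

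Osteoglycin and podocan stand in other classes. Ogn encodes osteoglycin, also called mimecan, a small keratan sulfate proteoglycan of connective tissue. Ogn had 90.0, 98.4 and 93.6 FPKM in NPS-EMSC and 362, 423 and 416 FPKM in EMSC, so that NPS-EMSC was 4.13-fold lower (log2 fold change -2.05, SE 0.06, adjusted p = 1.08e-17). Podn encodes podocan, a collagen-binding member named for the podocytes of the kidney. Podn had 27.9, 28.8 and 28.1 FPKM in NPS-EMSC and 45.9, 47.5 and 48.0 FPKM in EMSC, a 1.62-fold lower level (log2 fold change -0.69, SE 0.04, adjusted p = 9.61e-13).

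**Figure D2:**
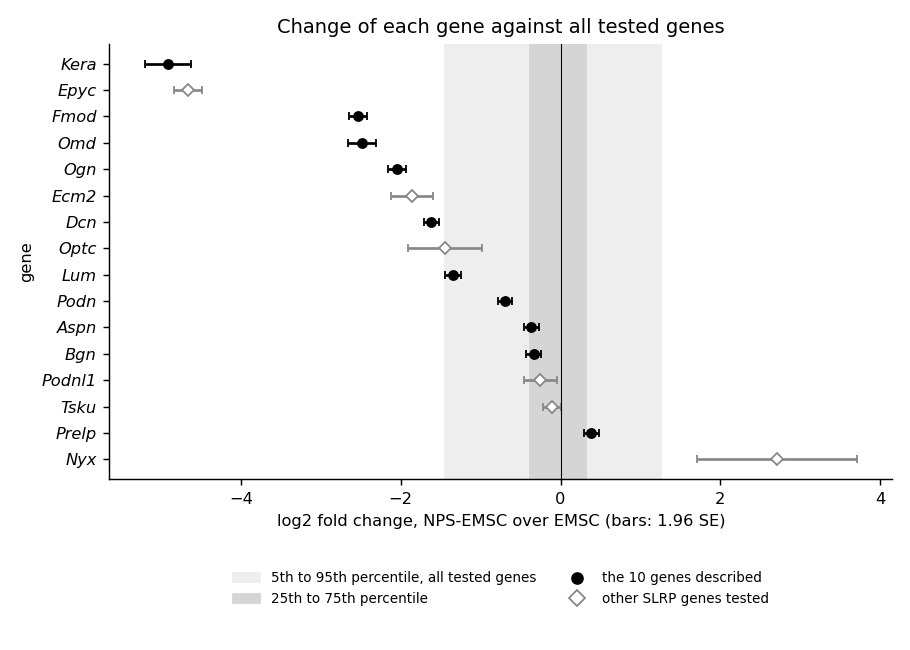
Log2 fold change of NPS-EMSC over EMSC for the 10 genes (filled circles) and the 6 tested other SLRP genes (open diamonds), with error bars made from the SE as the axis states; grey bands mark the 5th to 95th and 25th to 75th percentiles of all tested genes. Kera at -4.91 and Epyc at -4.66 lie far left of the band's edge at -1.44, and Prelp at 0.39 lies right of 0.

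The other SLRP genes on the list were Epyc, Optc, Ecm2, Chad, Chadl, Nyx, Tsku and Podnl1. Of these 8, 6 were tested, 4 of them lower, 1 higher and 1 not passing, beside 29.5% lower and 29.7% higher over all tested genes. Epyc, the epiphycan gene of growth plate cartilage, had 516, 491 and 504 reads in NPS-EMSC against 11940, 15167 and 13142 reads in EMSC. That is 5.85 ± 0.144 FPKM in NPS-EMSC and 153 ± 18.1 FPKM in EMSC (SD, n = 3). The log2 fold change was -4.66 (SE 0.09, adjusted p = 9.75e-15). In EMSC its level lay near that of Aspn. Ecm2, a matrix protein gene with leucine-rich repeats, fell 3.62-fold (log2 fold change -1.86, SE 0.13). Optc, the opticin gene known from the vitreous of the eye, was low and variable, with 127, 103 and 57 reads in NPS-EMSC and 240, 251 and 341 reads in EMSC, and fell (log2 fold change -1.45, SE 0.24, adjusted p = 2.62e-05). Nyx, the nyctalopin gene of the retina, was higher at 49, 33 and 31 reads in NPS-EMSC and 7, 2 and 4 reads in EMSC (log2 fold change 2.71, SE 0.51, adjusted p = 6.53e-05). It passed the filter through NPS-EMSC alone, so its direction carries little weight. Podnl1, a relative of Podn, passed narrowly (log2 fold change -0.25, SE 0.11, adjusted p = 0.0444). Tsku, which encodes the secreted BMP and Wnt modulator tsukushi, had a log2 fold change of -0.11 (SE 0.06, adjusted p = 0.133). Chad had at most 8 reads and Chadl at most 15 reads in any library, and neither was tested.

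Compared per length, the sum of the 10 genes was 2569 ± 34.5 FPKM in NPS-EMSC and 4870 ± 117 FPKM in EMSC (SD, n = 3). These sums were 0.591% to 0.608% of all FPKM in NPS-EMSC and 1.15% to 1.21% in EMSC. The make-up of the sum changed as well, as the genes with small falls gained share. Bgn made up 53.7% ± 0.34 of the sum in NPS-EMSC and 36.9% ± 1.4 in EMSC. Lum made up 21.9% ± 0.11 in NPS-EMSC and 30.3% ± 0.83 in EMSC, and Dcn 9.98% ± 0.17 in NPS-EMSC and 16.7% ± 0.19 in EMSC. Prelp held 4.18% ± 0.26 in NPS-EMSC and 1.74% ± 0.15 in EMSC, while Ogn held 3.66% ± 0.16 in NPS-EMSC and 8.21% ± 0.49 in EMSC.

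**Figure D3:**
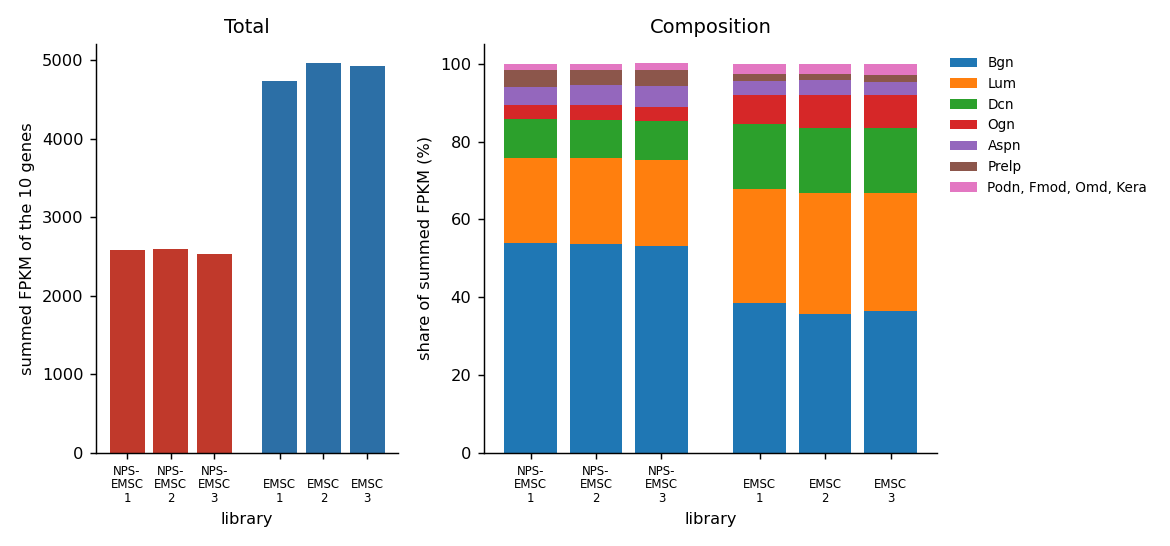
Left, summed FPKM of the 10 genes in each library; right, the share of each gene in that sum in percent, with the 4 least abundant genes joined; NPS-EMSC libraries stand left of EMSC libraries. The sums are 2529 to 2592 in NPS-EMSC and 4737 to 4955 in EMSC, and the Bgn share is above 53% in every NPS-EMSC library.

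The order of levels within NPS-EMSC was Bgn, Lum, Dcn, Aspn, Prelp, Ogn, Podn, Fmod, Omd and Kera. Within EMSC it was Bgn, Lum, Dcn, Ogn, Aspn, Prelp, Podn, Fmod, Omd and Kera. In neither group did the FPKM ranges of neighbours in the order overlap, and Ogn stood below Aspn and Prelp in NPS-EMSC but above both in EMSC. The ratio of Lum to Dcn was 2.19 ± 0.049 in NPS-EMSC and 1.81 ± 0.04 in EMSC (SD, n = 3).

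Many SLRP genes lie side by side, a fact the choice of the 10 genes did not use. By RefSeq's annotation of GRCr8, a rat assembly, matched by symbol, Dcn, Lum, Kera and Epyc are consecutive protein-coding genes on chromosome 7. Ogn, Omd, Aspn and Ecm2 lie together on chromosome 17 with the gene Rpl6-ps6 between Aspn and Ecm2. Optc, Prelp and Fmod are consecutive on chromosome 13. Bgn on chromosome X and Podn on chromosome 5 have no SLRP neighbour.

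On chromosome 7 the changes fell into 2 pairs, with Dcn and Lum at log2 fold changes of -1.62 and -1.35 and Kera and Epyc at -4.91 and -4.66. The ratio of Epyc to Kera in FPKM was 11, 15.2 and 9.43 in NPS-EMSC and 9.23, 9.85 and 8.51 in EMSC, so it overlapped between the groups. The ratio of Lum to Kera was 1040, 1520 and 898 in NPS-EMSC against 95.2, 88.6 and 82.7 in EMSC. The genes on either side, taken by position, were Btg1, an antiproliferative gene that rose (log2 fold change 0.43, SE 0.06, adjusted p = 4.44e-07), and Ccer1, which had at most 7 reads in a library.

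On chromosome 17 Ogn, Omd and Ecm2 fell with log2 fold changes of -2.05, -2.49 and -1.86, whereas Aspn, which lies between Omd and Ecm2, stood at -0.37. The ratio of Aspn to Ogn was 1.39, 1.35 and 1.41 in NPS-EMSC libraries against 0.456, 0.431 and 0.412 in EMSC libraries. These 4 genes overlap Cenpp, a centromere protein gene annotated on the opposite strand, and Dcn, Fmod, Aspn and Prelp overlap uncharacterised loci. Since the strand setting of the counting is not given, reads of overlapping genes cannot be told apart. Cenpp itself had 30, 20 and 56 reads in NPS-EMSC and 67, 63 and 61 reads in EMSC (log2 fold change -0.75, SE 0.37, adjusted p = 0.0807). The genes outside, Nol8 and Ippk, had log2 fold changes of 0.09 (SE 0.09, adjusted p = 0.384) and -0.04 (SE 0.13, adjusted p = 0.818).

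On chromosome 13 the neighbours went opposite ways, with Prelp at 0.39 between Optc at -1.45 and Fmod at -2.53. The ratio of Prelp to Fmod was 17.7, 14.8 and 16.8 in NPS-EMSC libraries and 2.35, 2 and 2.16 in EMSC libraries. Beyond Fmod, the antiproliferative p53 target gene Btg2 rose (log2 fold change 1.06, SE 0.05, adjusted p = 2.85e-15), and beyond Optc the calcium pump gene Atp2b4 rose as well (log2 fold change 0.31, SE 0.09, adjusted p = 0.00419).

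**Figure D4:**
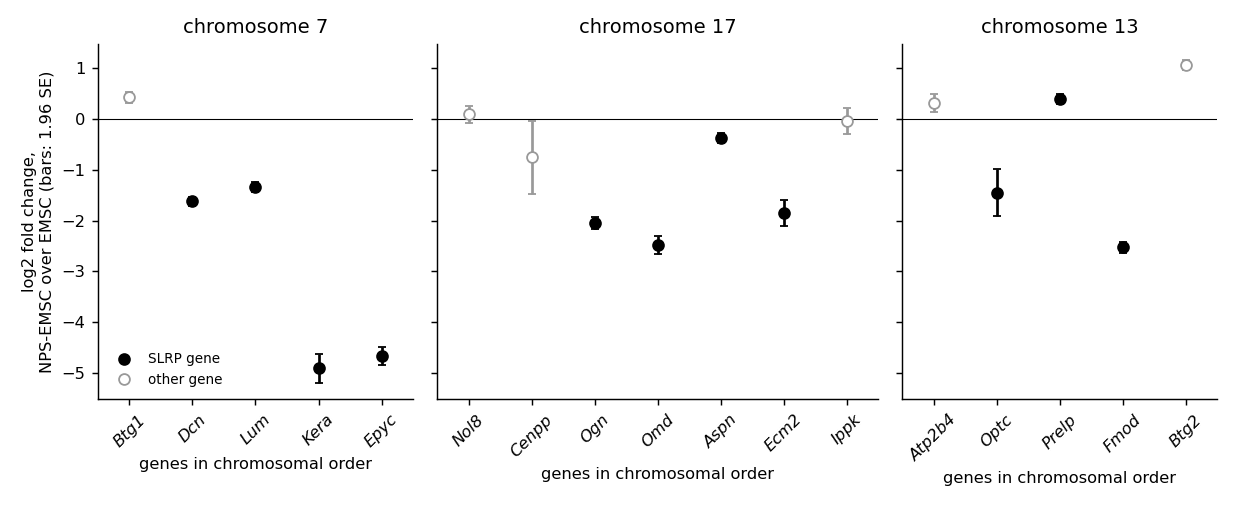
Log2 fold change of NPS-EMSC over EMSC (error bars made from the SE as the axis states) along 3 groups of neighbouring SLRP genes (filled) with the tested genes around them (open), in chromosomal order with even spacing. Kera and Epyc share values near -5, while Aspn at -0.37 and Prelp at 0.39 stand apart from their neighbours.

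Promoter windows of 250 bases before to 50 bases after the annotated start were found in the RefSeq table of GRCr8 for 7 of the 10 genes and for Epyc. The windows of 3 neighbours on chromosome 7 are shown because Lum fell far less than Kera and Epyc, and those of Ogn and Aspn because Ogn fell far more than Aspn, which lies near it on chromosome 17. They are Lum at chr7:34245456-34245755 (plus strand), Kera at chr7:34283850-34284149 (plus strand), Epyc at chr7:34323082-34323381 (plus strand), Ogn at chr17:15258946-15259245 (minus strand) and Aspn at chr17:15310420-15310719 (minus strand), each written 5′ to 3′ on the strand of its gene. Capitals mark matches, on either strand, to 6 motifs. They are the TATA box with the letters TATAAA, the box with the letters CCAAT, the GC box with the letters GGGCGG, the AP-1 site with the letters TGANTCA, the Runx site with the letters TGTGGT and the CRE with the letters TGACGTCA.
Lum: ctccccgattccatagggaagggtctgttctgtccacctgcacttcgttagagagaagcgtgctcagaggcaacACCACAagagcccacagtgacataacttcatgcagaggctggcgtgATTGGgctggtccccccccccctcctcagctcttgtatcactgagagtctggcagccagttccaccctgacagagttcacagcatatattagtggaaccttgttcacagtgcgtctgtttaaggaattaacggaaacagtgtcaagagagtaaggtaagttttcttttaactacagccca
Kera: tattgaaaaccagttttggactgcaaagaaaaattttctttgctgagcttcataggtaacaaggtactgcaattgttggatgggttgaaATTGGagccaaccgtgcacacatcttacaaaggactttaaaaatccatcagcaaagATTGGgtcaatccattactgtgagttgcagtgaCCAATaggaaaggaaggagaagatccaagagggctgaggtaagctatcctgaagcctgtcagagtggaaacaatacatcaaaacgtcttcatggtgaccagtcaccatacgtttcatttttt
Epyc: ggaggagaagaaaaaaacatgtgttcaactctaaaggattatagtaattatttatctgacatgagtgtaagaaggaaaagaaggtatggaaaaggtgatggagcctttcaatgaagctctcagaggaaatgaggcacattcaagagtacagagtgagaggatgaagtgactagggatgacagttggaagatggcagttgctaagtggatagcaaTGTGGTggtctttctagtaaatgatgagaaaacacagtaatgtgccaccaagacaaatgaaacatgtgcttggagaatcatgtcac
Ogn: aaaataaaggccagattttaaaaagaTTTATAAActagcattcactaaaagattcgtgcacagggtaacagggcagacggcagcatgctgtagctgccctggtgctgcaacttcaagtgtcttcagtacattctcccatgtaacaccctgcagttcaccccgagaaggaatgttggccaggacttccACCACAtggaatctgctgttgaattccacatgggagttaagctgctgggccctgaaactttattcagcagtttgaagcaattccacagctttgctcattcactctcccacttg
Aspn: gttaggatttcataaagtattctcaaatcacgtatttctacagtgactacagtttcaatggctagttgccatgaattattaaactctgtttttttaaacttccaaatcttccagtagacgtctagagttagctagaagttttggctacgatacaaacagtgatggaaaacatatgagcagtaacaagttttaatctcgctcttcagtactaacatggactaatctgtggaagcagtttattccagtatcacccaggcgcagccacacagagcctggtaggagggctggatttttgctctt

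The Kera window held 3 CCAAT boxes, the first base of each at -161, -105 and -72 from the start, and the Lum window held 1, at -130. A CCAAT box was present in 37.7% of all 27457 promoter windows of that table. The Epyc window held a Runx match at -36, and the Lum and Ogn windows 1 each, at -176 and -63, beside a share of 16.9% of all windows. The TATAAA matches of Ogn, at -224 and -222, overlap each other on opposite strands and lie far from the start, and 14.3% of all windows held that motif. None of the letters searched was found in the Aspn window (0 matches), nor in that of Omd, and no window of the 7 genes or of Epyc held the AP-1 or CRE letters, which occur in 7.33% and 1.91% of all windows. GC boxes, in 34.9% of all windows, were found in the windows of Fmod and Podn. Kera, Epyc, Aspn and Omd had windows of 40.7%, 39.7%, 39% and 37.7% G and C bases, against 76.3% for Podn and a median of 52.3% over all windows. A match is a description of the letters and no evidence of binding.

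Genes that build the sugar chains moved both ways. Of 21 tested enzymes of the linker and the chondroitin or dermatan sulfate chain, 8 rose, 8 fell and 5 did not pass, with a median log2 fold change of -0.01. Over all tested genes 29.7% rose and 29.5% fell, so such counts in themselves say little about a list. Csgalnact1 and Csgalnact2, which start the chondroitin chain, rose to 119.5 ± 2.29 and 75.3 ± 1.68 CPM in NPS-EMSC, against 64.2 ± 2.60 and 45.2 ± 0.234 CPM in EMSC (SD, n = 3; log2 fold changes 0.90 and 0.74). Chpf2, a chain polymerising factor gene, rose by 0.68 on the log2 scale (SE 0.05), and Xylt1, a xylosyltransferase gene of the first step of chain attachment, fell with a log2 fold change of -1.09 (SE 0.13). Dse, the dermatan sulfate epimerase gene, had 141 ± 2.83 CPM in NPS-EMSC and 149.5 ± 2.92 CPM in EMSC (adjusted p = 0.121). Of 6 tested keratan sulfate enzymes, 4 fell and 2 rose (median -0.45). Among the 4, Chst1 had few reads, with 15, 4 and 24 in NPS-EMSC and 53, 38 and 70 in EMSC. Chst1 passed the filter through EMSC alone, so its place among the falling genes carries little weight. B4galt4, a galactosyltransferase gene of the keratan sulfate chain, fell 2.01-fold to 26.5 ± 0.878 CPM in NPS-EMSC, against 53.4 ± 3.55 CPM in EMSC, and the sulfotransferase gene Chst2 and the core fucosyltransferase gene Fut8 fell by 0.42 and 0.48 on the log2 scale. B4galt1, a galactosyltransferase of many glycans, rose by 0.65 on the log2 scale (SE 0.05).

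The collagens that SLRPs bind moved both ways. Of 12 tested, 7 fell, 3 rose and 2 did not pass (median -0.20), beside 29.5% falling and 29.7% rising over all tested genes. Their summed level was 29200 to 30200 CPM in NPS-EMSC and 28700 to 33000 CPM in EMSC. Col14a1, whose product lies on the fibril surface and binds decorin, fell to 1946 ± 1.77 CPM in NPS-EMSC, against 5500 ± 332 CPM in EMSC (SD, n = 3), with a log2 fold change of -1.50 (SE 0.05) and an adjusted p of 1.63e-18. Its relative Col12a1 rose to 4133 ± 240 CPM in NPS-EMSC, against 1597 ± 152 CPM in EMSC (log2 fold change 1.37, SE 0.06). Among fibril-forming chains, Col3a1 rose by 0.56 on the log2 scale (SE 0.05) and Col5a2 by 0.52 (SE 0.05). Lower in NPS-EMSC were Col5a1 (-0.82), Col1a1 (-0.28), Col1a2 (-0.13) and Col2a1 (-1.58), while Col11a1 did not pass. Col2a1 had only 9, 19 and 24 reads in NPS-EMSC, so its direction carries little weight. Col6a2 of the microfibrils that biglycan binds fell with a log2 fold change of -0.52 (SE 0.04).

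The list of genes for the processing or cleavage of SLRPs holds proteases and Pcolce, which encodes a protease enhancer and no enzyme. Of its 9 tested genes 6 rose, Pcolce among them, 2 fell and 1 did not pass (median 0.20). Beside these counts, 29.7% of all tested genes rose and 29.5% fell. Tll1, a tolloid protease gene of the family that trims biglycan, rose to 210 ± 5.80 CPM in NPS-EMSC, against 76.2 ± 3.22 CPM in EMSC (log2 fold change 1.46, SE 0.05). Mmp2, gelatinase A, rose by 1.13 (SE 0.05) and Mmp14, its membrane-bound activator, by 0.44 (SE 0.04), while Mmp3, stromelysin, which cleaves decorin, fell to 42.5 ± 2.39 CPM in NPS-EMSC, against 85.1 ± 6.09 CPM in EMSC.

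Of 7 tested receptors of decorin or biglycan, 3 rose, 3 fell and Egfr did not pass (median 0.06), beside 29.7% rising and 29.5% falling over all tested genes. Tlr2, a toll-like receptor for soluble biglycan, fell to 3.9 ± 0.945 CPM in NPS-EMSC, against 29.3 ± 2.65 CPM in EMSC (log2 fold change -2.89, SE 0.13, adjusted p = 1.38e-14). P2rx4, an ATP-gated channel gene, rose by 1.01 (SE 0.06) and Igf1r by 0.18 (SE 0.04), and Met, the hepatocyte growth factor receptor that decorin can block, fell with a log2 fold change of -0.73 (SE 0.05). Tlr2 is also expressed by leukocytes, of whose 7 tested markers 6 were lower and Cd14 was higher in NPS-EMSC, and their part in this result was not tested. Among the lower markers, Ptprc, Itgam, Csf1r and C1qa passed the filter through EMSC alone, while Lyz2 and Cd68 were above it in both groups.

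All 8 growth factors on the list were tested, 5 rising and 3 falling (median 0.26), beside 29.7% rising and 29.5% falling over all tested genes. Ccn2, connective tissue growth factor, which decorin binds, rose to 3369 ± 155 CPM in NPS-EMSC, against 1044 ± 16.7 CPM in EMSC (SD, n = 3), with a log2 fold change of 1.69 (SE 0.05) and an adjusted p of 5.98e-20. Mstn, myostatin, another decorin ligand, rose to 7.45 ± 0.855 CPM in NPS-EMSC, against 0.140 ± 0.0999 CPM in EMSC (log2 fold change 5.30, SE 0.30). With 5, 10 and 2 reads in EMSC, Mstn passed the filter through NPS-EMSC alone, so its place among the 5 rising genes carries little weight. Pdgfa rose by 1.24 (SE 0.07), Bmp4 fell with a log2 fold change of -0.89 (SE 0.06), and the TGF-β genes Tgfb1, Tgfb2 and Tgfb3 had log2 fold changes of 0.23, -0.20 and 0.29, all past the threshold.

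**Figure D5:**
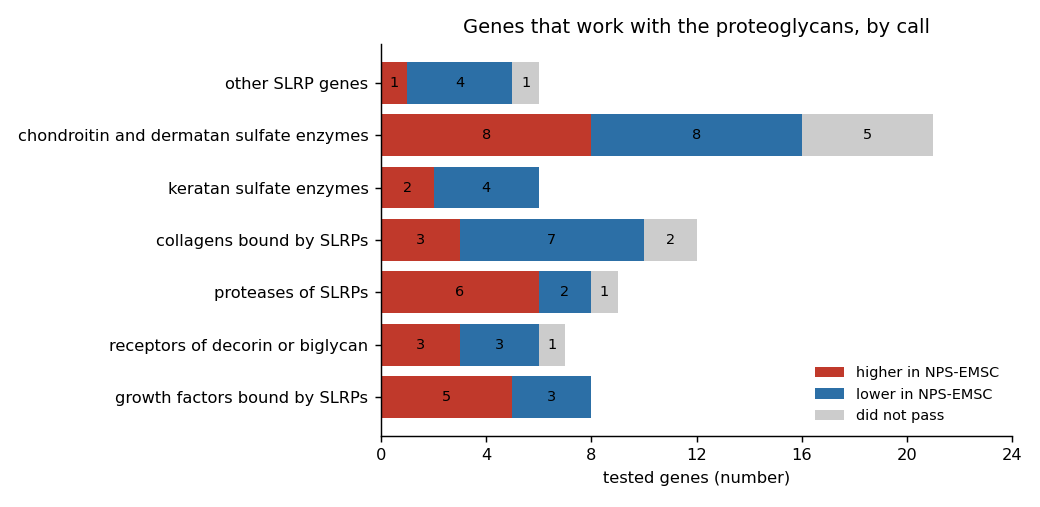
Number of tested genes in each of the 7 lists of related SLRP, enzyme, collagen, receptor and growth factor genes that were higher in NPS-EMSC (red), lower in NPS-EMSC (blue) or did not pass (grey). The chondroitin and dermatan sulfate enzymes split evenly at 8 and 8, and each of the 7 lists drawn holds both higher and lower genes.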

How the data were processed

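RNA of 6 libraries was sequenced, and the authors deposited whole-number read counts per gene, with no normalisation evident, and FPKM values. The submitters' processing notes name, without role or order, HISAT2, StringTie, HTSeq, fastp, R 3.2.0 and DESeq. Genome build, annotation and strand setting: not given in the sources used here. Dividing counts by the deposited FPKM and the column total gave 1 length per gene within 0.1% for all 20653 genes, so FPKM adds no separate measurement. Counts were tested with edgeR 4.0.16 in R 4.3.3 (TMM, filterByExpr with minimum count 10 and total 15, robust quasi-likelihood F test, prior count 2), Benjamini-Hochberg adjusted over 14505 genes. Each SE was taken as the size of the log2 fold change over the root of F. The procedure was also run on simulated counts in which a small share of genes was changed. Since 59.3% of tested genes were called here, that run cannot show how scaling or error rates behave under so wide a change. The 10 genes and the lists were chosen with earlier results of these data known. The genes named from each list are the 4 with the smallest p, plus neighbours taken by position. Other genes were named after their values were seen (Dse, Egfr, Tgfb1, Tgfb2, Tgfb3, Podnl1, Tsku, Cd14, Csf1r, C1qa, Lyz2, Cd68, Chst1, Pcolce, Col5a1, Col5a2, Col2a1, Col1a1, Col1a2 and Col11a1). Alternatives used DESeq2 1.42.0, limma 3.58.1 on log2 FPKM values, other factors and filters, a replicate block and leaving out each library. Replicates of a group differed by more than sampling noise, with a chi-square per gene of 5.00 to 12.3. The summed level of the glial marker list is not reported here.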

Additional observations from a re-analysis of the deposited data

How the results depend on the processing

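Each of the 10 genes kept its direction and its call under all 14 alternatives, with the highest adjusted p at 0.00552 (Prelp, whose log2 fold change ranged from 0.34 to 0.44). Kera ranged most, from -5.06 to -3.55 on the log2 scale, the smaller size coming from log2(FPKM + 1), where the pseudocount exceeds its NPS-EMSC level. The number of genes called was 8600 and ranged from 7121 to 8914. With FPKM and a filter at 0.5 FPKM, no other SLRP gene was called higher (0 with either pseudocount), because 1 library of Nyx reached 0.5 FPKM where 3 were required, and log2(FPKM + 1) without a filter called 1 receptor gene higher in place of 3. The log2 ratio of the summed 10 genes was -0.92 in FPKM and -0.84 in reads scaled to library total alone, which weights long genes more; the Bgn share was then 55.8% in NPS-EMSC and 40.6% in EMSC. Leaving out each library in turn gave 7870 to 8341 called genes. With the replicate block 8588 genes were called, 4 collagens rose in place of 3, and no call among the 10 genes changed. The numbers are not shown to pair libraries, since the correlations of deviations for equal numbers were -0.0526, 0.0675 and 0.0464. The 4 other SLRP genes called lower were 3 or 4 in number under every alternative, and Podnl1 passed narrowly. The NPS-EMSC levels of Nyx, Optc and Kera rest on few reads. In EMSC, Nyx had 7, 2 and 4 reads, under the minimum count of 10. Precision is limited throughout by 3 libraries a group.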
